A study of Homo sapiens with 4 samples.

Results

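CREB5 and 9 related genes of the CREB, ATF and BATF factors were followed in nascent RNA after degradation of KAP1, the corepressor that TRIM28 encodes. The 10 genes are CREB5, ATF2 and ATF7, then CREB1, CREM and ATF1, then ATF3 and JDP2, and BATF2 and BATF3. They were selected on the dTAG against DMSO values of these same libraries, in which CREB5 had the largest rise, so their changes are described here and not offered as a test. They make up 10 of 19901 genes counted, and all 10 passed the minimum of 50 counts in every library that left 12612 tested genes.

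The cells were HCT116, a colon cancer cell line, of 1 clone, D5, in which KAP1 is fused to a dTAG degron. Cells of both groups carried this fusion, and all received 4-thiouridine (4sU) at 500 μM for 10 min, so that RNA made in this pulse could be purified and sequenced (TT-Seq). In the DMSO group the cells had vehicle for 8 h, and in the dTAG group they had the degrader dTAG-13, at 500 nM per the methods of the study, for 8 h. Each group held 2 libraries, described as biological replicates, and with 1 clone and no cells without the tag, whether other clones respond alike and what the compound does by itself were not measured.

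The factors share a basic region that contacts DNA and a leucine zipper through which they pair (bZIP). CREB1, CREM and ATF1 bind the cyclic AMP response element (CRE), are phosphorylated by kinases such as PKA and recruit the coactivators CREBBP and EP300. ATF2, ATF7 and CREB5 respond to the stress kinases JNK and p38 and often pair with JUN. ATF3, a stress-induced factor, and JDP2 mostly repress as homodimers, whereas BATF factors lack an activation domain and act with JUN and IRF proteins in immune cells.

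Counts on genes ranged from 93105627 to 102314741 per library, and the ERCC spike-in RNAs added 0.0103% to 0.0265% of that number. Values are CPM, counts scaled to the TMM-normalized library size in edgeR, with SD over 2 libraries. A gene is called where edgeR's quasi-likelihood test gave a Benjamini-Hochberg adjusted p under 0.05 over all tested genes. By that rule 7.10% of the tested genes were called, 3.44% higher and 3.66% lower with dTAG. With upper-quartile scaling in place of TMM, 255 genes were called higher and 869 lower, against 434 and 461. TRIM28 stood at 61.6 and 69.7 CPM with DMSO and at 53.5 and 47.9 CPM with dTAG. It was called lower, with a log2 fold change of -0.37 (standard error 0.092), though not in every other fit. Since the degron acts on protein, this RNA does not check the labels. Of 9 colon epithelial markers, 6 were tested, led by KRT8, and the list summed to 1062 to 1170 CPM per library. CDX1, VIL1 and LGALS4 had at most 31 counts in any library. Of 8 markers of immune, fibroblast and endothelial cells, COL1A1 and VWF alone were tested, the list summed to 6.81 to 7.90 CPM per library, and PTPRC, CD3E and COL1A2 had at most 3 counts. In bulk RNA of this kind, fewer cells that transcribe a gene and less RNA per cell cannot be told apart.

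Among the ATF2 group, CREB5 changed most. CREB5 (ENSG00000146592.16, + strand of chr7:28299320-28825894 in hg38) had 442 and 380 counts with DMSO and 1094 and 1073 counts with dTAG. These correspond to 4.46 and 3.81 CPM with DMSO against 10.9 and 11.9 CPM with dTAG. Both dTAG libraries lay above both DMSO libraries, and within each group the libraries differed by a factor of 1.17 (DMSO) and 1.09 (dTAG). The mean rose from 4.13 ± 0.462 to 11.4 ± 0.684 CPM (SD, n = 2). This is a fold change of 2.76, or 1.46 on the log2 scale with a standard error (SE) of 0.15.

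The size of the CREB5 rise moved with the fit, while its direction did not. Over 16 alternatives the log2 fold change lay between 1.21 and 2.09, and leaving out each library in turn gave 1.35 to 1.58. CREB5 had the highest log2 fold change of all 12612 genes in 10 alternatives, the rank 2 in 5 and the rank 6 with the ERCC factor as a covariate. With the totals of ERCC counts as library sizes, edgeR's test called 0 genes, CREB5 included, and 229 had an unadjusted p under 0.05. The median of the tested genes shifted to 0.63 under that scaling, and CREB5 stood 1.46 above it. At the threshold where only calls of at least 1.5-fold upward count, which 0.507% of the tested genes passed, CREB5 and ATF3 were the members inside. JDP2, at 1.29-fold, was the nearest member outside.

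CREB5 is also the longest of the 10 genes. Its interval spans 526575 bases, longer than 98.8% of tested genes, with a GC content of 40.7%, and annotated exons make up 2.22% of it. Across the 12612 tested genes, log2 fold changes rose with gene length (Spearman's rho 0.42) and fell with GC content (rho -0.56), a description over genes that share the 4 libraries. For the 509 tested genes longer than 300 kb, the median log2 fold change was 0.072 and the 95th percentile was 0.40. After the trends on GC content and length were removed from each library, CREB5 kept a log2 fold change of 1.39.

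**Figure D1:**
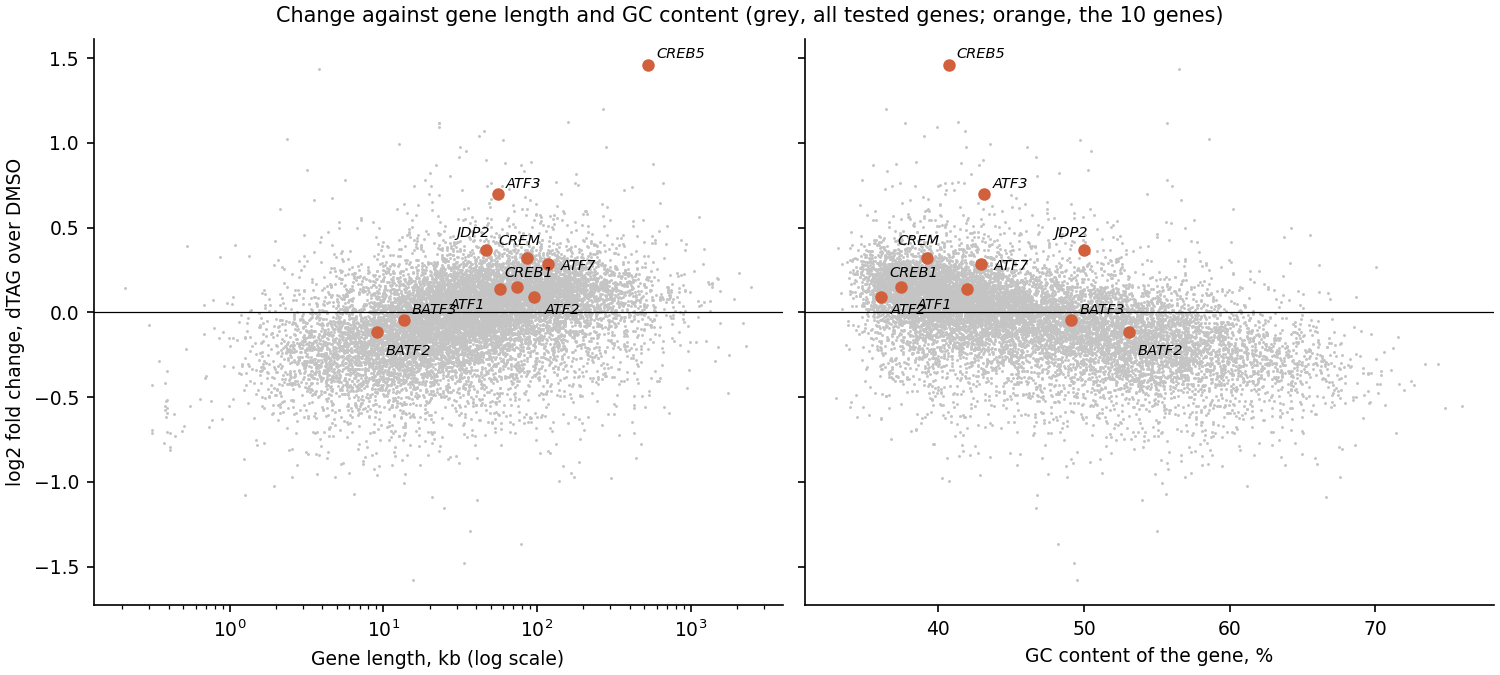
The log2 fold change (dTAG over DMSO) of every tested gene is plotted against gene length in kb on a log scale (left) and against the GC content of the gene in percent (right). Grey points are the 12612 tested genes and orange points the 10 members. CREB5 lies above all others at 1.46, at a length where the cloud of other long genes has a median of 0.072, and BATF2 and BATF3, the shortest members, lie just under 0.

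The 3 RefSeq starts of CREB5 with a promoter window lie at 113, 136 and 387 kb from the beginning of the counted interval. Counts over the whole gene do not tell which start carried the reads. Windows from 250 bases before to 50 bases after each start (RefSeq, GRCh38.p14) were searched on both strands for the CRE TGACGTCA, its shorter core TGACG, which also lies in the CRE, and the AP-1 element TGANTCA. Of 35116 such windows over all genes, 1.85% hold the CRE, 24.6% the shorter core and 7.71% the AP-1 element. In the 14886 windows of tested genes, to which the members belong, these shares are 2.76%, 31.2% and 5.29%. RefSeq windows were found for 8 members, 23 in all. Any CREB5 start without such a window was not searched. The AP-1 letters occur in 1 of the 23, ahead of the start at 387 kb of CREB5, and the 30 bases around them (chr7:28686078-28686107, + strand, AP-1 letters in capitals) show how they sit, 44 bases before the start. The window of the first of the 3 CREB5 starts, chr7:28412268-28412517 on the + strand, is given below them because it carries none of the searched letters.
CREB5, AP-1 letters: tgggaaggataTGACTCActcaagctagtt
CREB5, first start: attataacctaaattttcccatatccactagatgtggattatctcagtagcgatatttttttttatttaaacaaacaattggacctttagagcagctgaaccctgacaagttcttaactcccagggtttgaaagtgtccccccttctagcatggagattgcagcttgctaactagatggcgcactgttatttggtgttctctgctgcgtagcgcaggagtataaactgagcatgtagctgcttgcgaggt
A match is a description of the letters and not of a bound factor, and TT-Seq counts hold no binding data.

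ATF2, the partner of JUN that gives this group its name, had 165 and 142 CPM with DMSO and 160 and 166 CPM with dTAG. The groups overlapped, and the log2 fold change was 0.090 (SE 0.091). Its sign depended on the fit, from -0.13 with the ERCC factor to 0.71 with ERCC totals. ATF7, a close relative of ATF2, had 0.696 and 0.771 CPM with DMSO and 0.968 and 0.820 CPM with dTAG. Both dTAG libraries lay above the DMSO libraries, but these values stand for 69 to 97 counts, and the log2 fold change of 0.29 had an SE of 0.27 and was not called in any alternative.

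The ATF7 counts cover little of the gene. Its interval (chr12:53507855-53626410, - strand) is shared over 99.6% with the readthrough gene ATF7-NPFF on the same strand, which left 431 bases outside it, and ATF7-NPFF itself had 1 to 14 counts. Among all 772 genes of the table with at least 99% of their interval shared on the same strand, 19 had 50 counts in every library (2.46%). Of the 13347 genes that overlap no other, 62.1% did. The level of ATF7 therefore cannot be set against those of other genes.

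In the CREB group all 3 genes had higher values with dTAG, by less than CREB5, and none was called. CREB1, the founding CRE-binding factor, stood at 102 and 89.0 CPM with DMSO and at 105 and 107 CPM with dTAG. The groups did not overlap, but the dTAG libraries exceeded the higher DMSO library by little, and the log2 fold change was 0.15 (SE 0.087), with a sign that turned to -0.046 with the ERCC factor and to -0.012 after removal of GC and length trends. METTL21A covers 30.9% of the CREB1 interval from the opposite strand, and its own log2 fold change was 0.085 (SE 0.10). ATF1, which pairs with CREB1, had 78.4 and 73.5 CPM with DMSO and 82.9 and 84.6 CPM with dTAG, a log2 fold change of 0.14 (SE 0.083).

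CREM, which yields activators and, from an internal start, the short repressor ICER, had the widest change of the group. Its CPM were 25.1 and 22.8 with DMSO and 28.9 and 30.9 with dTAG, so that the groups did not overlap. The log2 fold change was 0.32 (SE 0.10), which stayed short of a call in the edgeR fit and was called in 5 of 16 alternatives, DESeq2 among them. CREM was the only member whose RefSeq windows hold the whole CRE. It lies at the internal starts 69.1 kb into the gene. Its first base falls 50 bases before the start at 35195902 and 2 bases past the start at 35195850. The 30 bases around it (chr10:35195841-35195870, + strand, CRE in capitals) are shown because no window of another member held it.
CREM, CRE: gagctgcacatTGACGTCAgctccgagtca
Reads from the internal and the first starts of CREM fall in 1 count, so their shares were not measured.

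ATF3 and JDP2, the repressor pair, both lay higher with dTAG in both libraries. ATF3 (ENSG00000162772.16, chr1:212565333-212620777, + strand) had 102 and 117 CPM with DMSO and 182 and 174 CPM with dTAG. The groups stood clear of each other, with a mean of 110 ± 10.9 against 178 ± 6.11 CPM (SD, n = 2). The log2 fold change was 0.70 (SE 0.090) and lay between 0.60 and 1.37 over the alternatives, called in all but that with ERCC totals. JDP2 (chr14:75427715-75474111, + strand) had 67.5 and 76.5 CPM with DMSO and 87.5 and 98.5 CPM with dTAG. Its groups did not overlap either, and the log2 fold change was 0.37 (SE 0.090). JDP2 was called in the edgeR fit and in 11 of 16 alternatives. It was no longer called without dTAG replicate 1 or without dTAG replicate 2 (0.46 and 0.28), nor with upper-quartile scaling (0.29), ERCC totals (1.05) or a replicate block (0.37).

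The 2 ATF3 starts with a RefSeq window lie 0.074 and 49.7 kb into its interval, and neither window holds any of the searched letters. Any ATF3 start without such a window was not searched. JDP2 holds the shorter CRE core 97 bases before its middle start. Windows of ATF7 and CREM hold this core too, so that it lies in 5 of the 23 windows of members, beside 31.2% of windows of tested genes. The stretch ahead of the first ATF3 start that no annotated exon covers (chr1:212565157-212565333, + strand) and 30 bases around the JDP2 core (chr14:75427914-75427943, + strand, core in capitals) are given, since ATF3 rose most after CREB5 and JDP2 is its closest relative.
ATF3, before the first start: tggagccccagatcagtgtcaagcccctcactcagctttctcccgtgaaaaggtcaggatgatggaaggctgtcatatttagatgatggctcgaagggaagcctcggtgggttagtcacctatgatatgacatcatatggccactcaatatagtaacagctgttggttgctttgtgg
JDP2, shorter core: ccgtccccctcTGACGtctggagctggcag

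The BATF genes were low and gave no steady direction. BATF2 had 1.19 and 1.45 CPM with DMSO and 1.47 and 0.964 CPM with dTAG, where the dTAG libraries enclosed the DMSO libraries. BATF3, known from dendritic cells, had 3.83 and 3.66 CPM with DMSO and 3.80 and 3.44 CPM with dTAG, and its groups overlapped. Their log2 fold changes were -0.12 (SE 0.26) and -0.047 (SE 0.18), and the sign turned in 7 and 5 of 16 alternatives, the removal of the length trend among them (0.035 and 0.062). The founding gene BATF had 2, 0, 0 and 3 counts and was not tested.

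**Figure D2:**
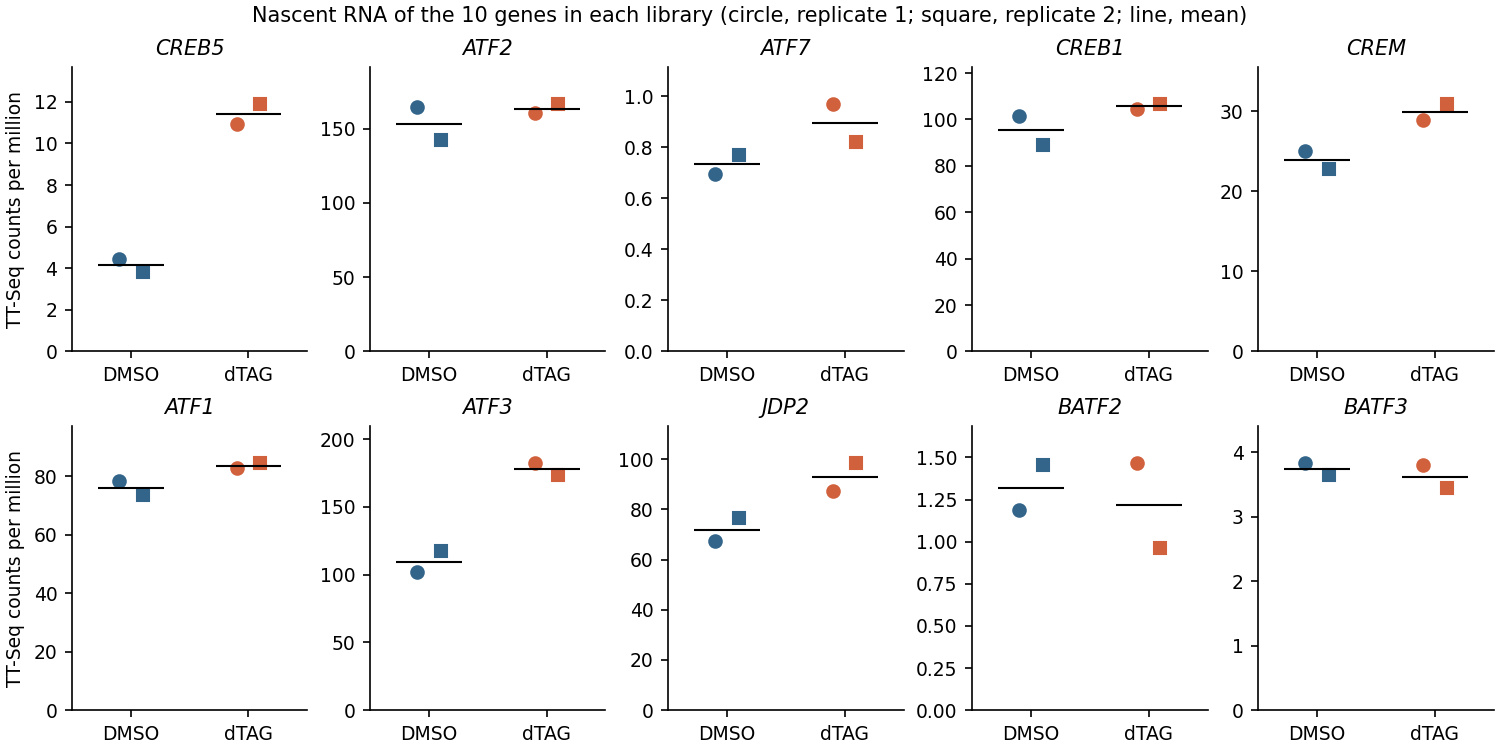
TT-Seq level (CPM) of each member in each library, on linear axes from 0. Circles are replicate 1, squares replicate 2 and lines group means. Each panel has its own scale. As a ratio, CREB5 shows the widest gap between groups (4.46 and 3.81 against 10.9 and 11.9), followed by ATF3, while ATF2, BATF2 and BATF3 overlap.

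Counted together, 3 of the 10 members were called higher (CREB5, ATF3 and JDP2) and 0 lower, beside 3.44% and 3.66% of all tested genes, in the contrast they were chosen from. The count of members with a negative value at an unadjusted p under 0.05 was 0 in the edgeR fit and in DESeq2. It was 1, ATF2, with the ERCC factor (-0.13) and after removal of GC and length trends without (-0.10) and with a replicate block (-0.10). For 7 members both dTAG libraries lay above both DMSO libraries, which 28.1% of tested genes did. The median log2 fold change of the 10 was 0.22, and that of all tested genes was -0.015. Leaving out DMSO replicate 1 raised the members called to 7, adding CREM, CREB1, ATF1 and ATF2. In that fit 5491 genes were called in all, against 895 with every library.

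**Figure D3:**
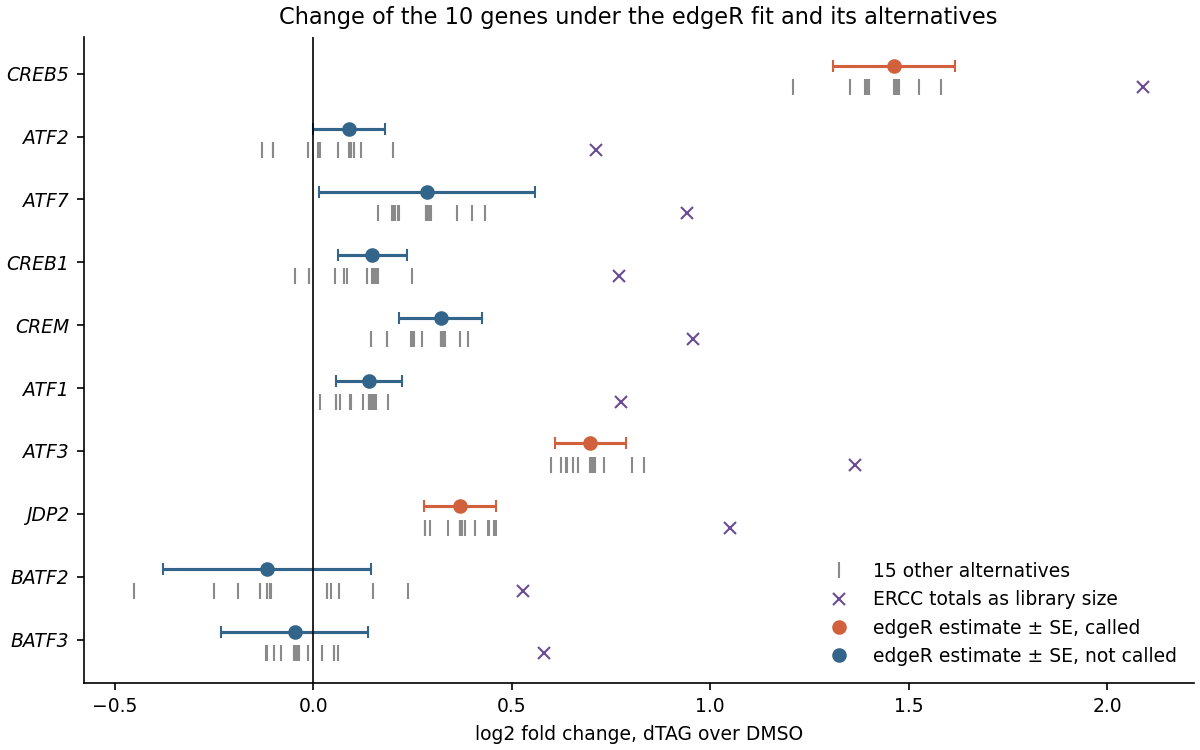
Log2 fold changes (dTAG over DMSO) of the members. Points with bars are edgeR estimates with standard errors, orange where called. Grey ticks are 15 alternatives, and crosses mark the fit with ERCC totals, under which the median gene lay at 0.63. CREB5, ATF3, JDP2, CREM, ATF1 and ATF7 stay above 0 in every alternative, whereas ticks of ATF2, CREB1, BATF2 and BATF3 fall on both sides of 0.

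The levels of the genes differed far more than their changes. The DMSO level is the base of each change, so the low level of CREB5 is not independent of its selection. Levels between genes are given as CPM per kb of gene interval in the DMSO libraries. ATF3 was highest at 1.98 ± 0.197 (SD, n = 2), followed by ATF2 at 1.60 ± 0.167 and JDP2 at 1.55 ± 0.137. ATF2 and JDP2 had overlapping DMSO ranges and did not differ beyond their spread, whereas ATF3 lay above both. ATF1 at 1.32 ± 0.0599 and CREB1 at 1.29 ± 0.121 overlapped likewise. These 5 genes fell between the 56.3 and 70.3 percentiles of tested genes.

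A step of 4.65-fold separated CREB1 from CREM, at 0.278 ± 0.0183 CPM per kb. CREM overlapped BATF3, at 0.276 ± 0.00928, and BATF2 followed at 0.145 ± 0.0203. CREB5 came 18.5-fold under BATF2, at 0.00785 ± 0.000878, a level above that of only 1.32% of tested genes. Its RefSeq starts with a promoter window lie 113, 136 and 387 kb into the interval by which the counts were divided. Where reads came from a later start, this level is understated and the ratios that use it are too wide. Which start carried the reads was not measured. Per kb, ATF2 was 202 and 204 times as high as CREB5 in the DMSO libraries. In the dTAG libraries it was 80.4 and 76.7 times as high, which restates the rise of CREB5. CREB5 thus stayed far under its relative at its highest value, 0.0226 CPM per kb in dTAG replicate 2. ATF7 had 0.00619 ± 0.000448 but takes no place in this order, given the few bases on which it was counted.

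Divided by exon length instead, ATF3, ATF1 and ATF2 led with 27.4, 26.8 and 26.7 CPM per kb of exon. JDP2 and CREB1 came next with 11.5 and 7.85. CREB5, at 0.354, was the lowest of the 9 members other than ATF7, which is left out of this order for its few counted bases. Nascent RNA is mostly intronic, so the gene interval is the main length here.

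**Figure D4:**
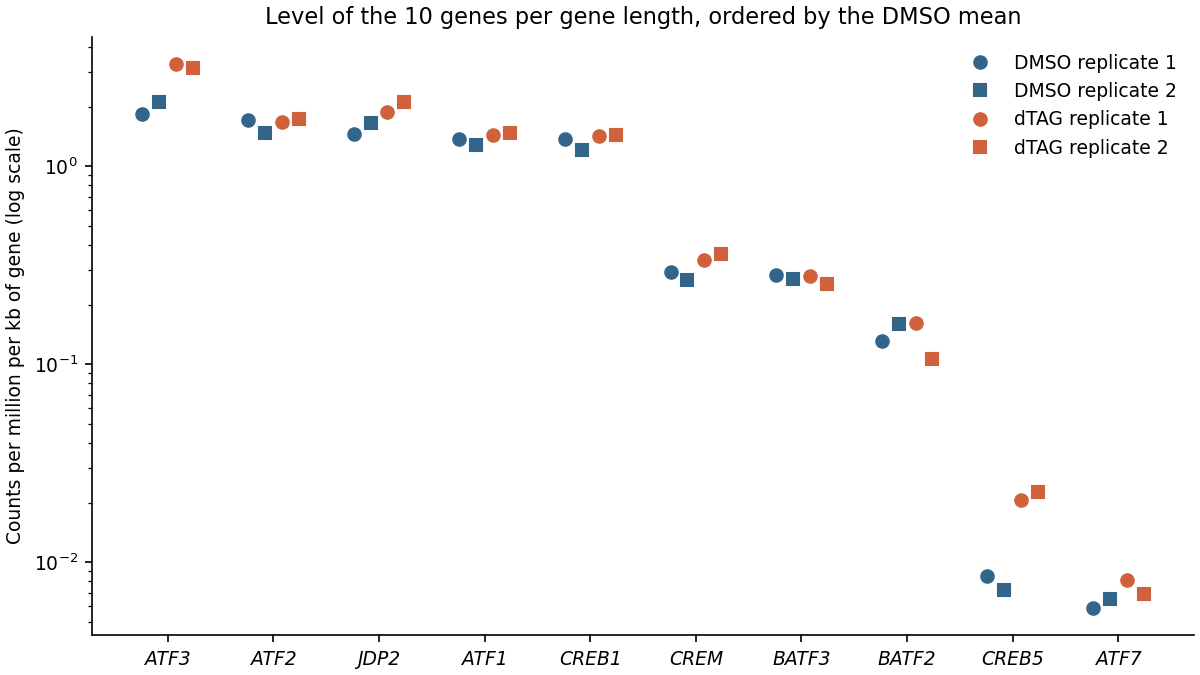
CPM per kb of gene interval for each member and library on a log scale, ordered by the DMSO mean. Blue marks are DMSO and orange marks dTAG libraries. ATF3 to CREB1 lie above 1 CPM per kb, CREM, BATF3 and BATF2 between 0.1 and 0.4, and CREB5 and ATF7 near 0.01, with CREB5 at 0.0207 and 0.0226 after dTAG.

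Among the tested genes whose profile over the 4 libraries was nearest to that of CREB5 were ITGBL1, NRP1, KRT80 and PI4K2B, at Euclidean distances of 0.38, 0.50, 0.59 and 0.62 in log2 CPM centered on the DMSO mean. ITGBL1, an integrin-like protein, had 971 and 864 counts with DMSO and 2116 and 1927 with dTAG. NRP1, a receptor for semaphorins and VEGF, had 2553 and 2464 counts and then 5266 and 5190. EGR1 had nearly the same log2 fold change as CREB5, 1.44, but 80.9 and 46.1 CPM in the dTAG libraries, and was not among the nearest. With 4 libraries in 2 groups, such likeness mostly restates the size of the rise. The nearest member was ATF3, at a distance of 1.13 and position 48.

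Genes beside the called members were read against the 7.10% of all tested genes that were called, and with so few genes nothing is drawn from their counts. Within 500 kb of CREB5, 3 genes were tested, of which TAX1BP1, an autophagy receptor 455 kb away, was called higher with a log2 fold change of 0.33 (SE 0.094). TAX1BP1 lost its call with a replicate block (0.33), upper-quartile scaling (0.26) and the ERCC factor (0.053), and without dTAG replicate 1 (0.39) or 2 (0.27). JAZF1, a zinc finger gene 119 kb away, and CPVL, a carboxypeptidase gene 169 kb away, had 0.11 (SE 0.089) and 0.023 (SE 0.12). Around ATF3 none of 10 tested genes was called, and they ranged from -0.16 to 0.25. One of them is BATF3, whose interval begins 65.6 kb past the end of ATF3. Around JDP2 none of 13 tested genes was called, with values from -0.50 to 0.21. Its neighbor FOS, 145 kb away, had 494 and 543 counts with DMSO and 596 and 276 with dTAG, a log2 fold change of -0.21 (SE 0.22).

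The other genes of these pathways were read from lists chosen with earlier results of these data known. Of 96 genes, 82 were tested, 14 were called higher (17.1%) and 4 lower (4.88%), against 3.44% and 3.66% of all tested genes. The median of the 82 was 0.050, and that of all tested genes was -0.015. The counts depended on single libraries, but so did the calls over all tested genes, so this dependence is not particular to the lists. A replicate block left 8 higher, where 162 of all tested genes were called higher in place of 434. The number of pathway genes is a description, and nothing particular to the lists is read from it.

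Upstream of CREB lie coactivators and kinases. None of the 5 coactivators (CREBBP, EP300 and 3 CRTC genes) and none of the 6 PKA subunits tested was called, with list medians of -0.033 and 0.063. Values ran from -0.32 to 0.11 among coactivators and from -0.22 to 0.23 among PKA subunits. Of 8 tested kinases that act on CREB or the CRTC coactivators, 2 were called higher and 1 lower. RPS6KA5 (MSK1), which phosphorylates CREB1 and ATF1, went from 104 ± 9.42 to 137 ± 15.9 CPM (SD, n = 2), which is 0.39 on the log2 scale (SE 0.094). RPS6KA3 (RSK2) went from 94.9 ± 14.1 to 122 ± 3.66 CPM (0.37, SE 0.095), while RPS6KA1 (RSK1) went from 60.9 ± 11.2 to 47.1 ± 2.75 CPM (-0.37, SE 0.11). All 3 lost their call without dTAG replicate 1, without dTAG replicate 2, with a replicate block (0.39, 0.37 and -0.36) and with the ERCC factor (0.13, 0.081 and -0.082). RPS6KA1 lost it also without DMSO replicate 2 (-0.17).

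Among the JNK and p38 kinases and their activators, which act on ATF2 and ATF7, 1 of 11 was called. MAP2K6, an activator of p38, fell from 3.39 and 3.50 CPM to 1.41 and 2.06 CPM. Its log2 fold change was -0.99 (SE 0.22, adjusted p 0.010 in edgeR's quasi-likelihood test), and it was not called without dTAG replicate 1 (-0.74).

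Of the 7 FOS and JUN genes, among them JUN as a partner of ATF2 and BATF factors, JUN and FOSL1 were called higher and none lower. JUN had 16.1 and 18.8 CPM with DMSO and 29.6 and 25.5 CPM with dTAG, a log2 fold change of 0.66 (SE 0.12, adjusted p 0.0015 in the same edgeR test). FOSL1 had 100 and 113 CPM with DMSO and 169 and 140 CPM with dTAG, a log2 fold change of 0.53 (SE 0.097). Without dTAG replicate 1 neither was called (0.55 for JUN and 0.40 for FOSL1). The list median was 0.31. IRF4 and IRF8, the partners of BATF factors in lymphocytes, had at most 2 counts in a library and were not tested.

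The list of genes with other ATF or CREB names, which also held XBP1, had 10 tested genes. ATF6 and XBP1, both factors of the unfolded protein response, were called higher with 0.43 (SE 0.099) and 0.36 (SE 0.085). Both lost their call with a replicate block (0.43 and 0.36) and without dTAG replicate 1 or dTAG replicate 2, and ATF6 also with the ERCC factor (0.15). ATF4, the activator of the integrated stress response, had -0.092 (SE 0.096). Among 19 tested bZIP genes of other families, 6 were called higher and 1 lower. BACH2, a repressor that pairs with small MAF proteins, rose from 36.1 ± 2.35 to 59.6 ± 2.23 CPM (SD, n = 2), with 0.72 (SE 0.091, adjusted p 5.2e-05 in the edgeR test). MAFF, a small MAF protein, rose by 0.74 (SE 0.12) and CEBPG, a partner of ATF4, by 0.50 (SE 0.086) on the log2 scale, the latter not called without dTAG replicate 2 (0.41). DBP, a clock output factor, went the other way, from 24.5 ± 6.47 to 13.2 ± 0.196 CPM (SD, n = 2), with -0.90 (SE 0.14). MAFF, DBP and RPS6KA5 each overlap another gene on the opposite strand. The remaining called genes of this list, named after their values were seen, were DDIT3, NFIL3 and NFE2L2. DDIT3 overlaps another gene on the same strand, and MARS1 and MBD6 on the opposite strand. NFE2L2 overlaps AGPS on the opposite strand.

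Downstream, 18 of 24 genes known as CREB targets were tested, of which 2 were called higher and 1 lower, with a median of 0.052. EGR1, an immediate early gene, had 26.0 and 21.0 CPM with DMSO and 80.9 and 46.1 CPM with dTAG. Its log2 fold change was 1.44 (SE 0.16) and 0.98 without dTAG replicate 1. NR4A1, an orphan nuclear receptor, had 0.53 (SE 0.13) and was not called without dTAG replicate 1 (0.39) or dTAG replicate 2 (0.66). RGS2, an inhibitor of G protein signaling, fell from 50.6 and 55.7 to 35.9 and 33.5 CPM, with -0.61 (SE 0.093, adjusted p 4.3e-04 in the edgeR test), and was not called without dTAG replicate 2 (-0.57). The 15 others were not called, among them NR4A2, PER1 and the cyclic AMP phosphodiesterase PDE4B, with -0.17 (SE 0.12), -0.10 (SE 0.10) and -0.13 (SE 0.11).

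**Figure D5:**
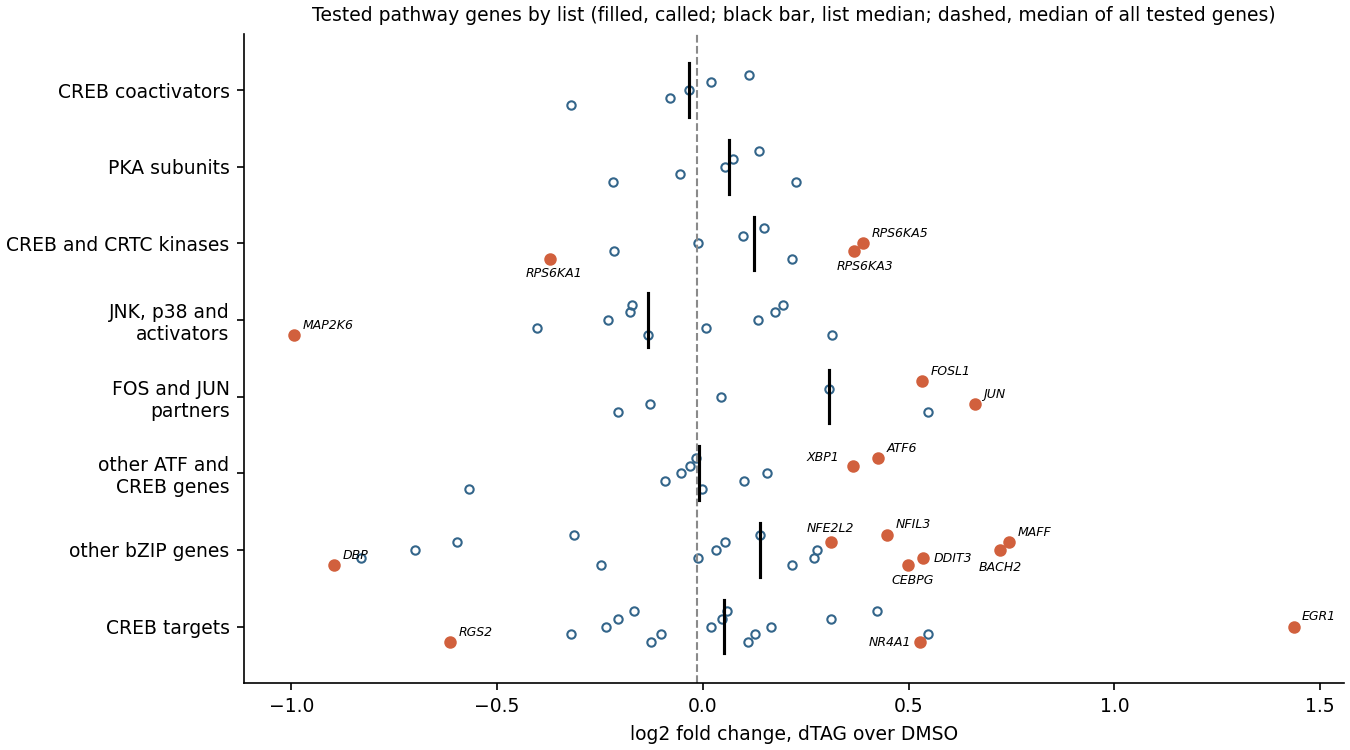
Log2 fold changes (dTAG over DMSO) of the tested pathway genes in 8 lists. Filled orange points with names were called, open points were not, black bars are list medians and the dashed line is the median of all tested genes (-0.015). EGR1 lies farthest right at 1.44 and MAP2K6 farthest left at -0.99, and no gene of the coactivator or PKA lists was called.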

How the data were processed

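TT-Seq was measured in 4 libraries of HCT116 KAP1dTAG cells. Per the study's methods, the authors trimmed reads with Trim Galore 0.6.4, aligned them to hg38 with STAR and counted them over whole protein-coding genes with featureCounts (Subread 1.6.3). The deposited values are raw counts of 19901 genes and 92 ERCC RNAs, without normalization. How the counting treated strand is not given in the sources used here. All per-sample columns were used. Groups and replicate numbers came from the labels.

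Members were matched by Ensembl identifier, with 19802 identifiers paired with a symbol, and the members, lists and rule for named genes were chosen with earlier results of these data known. The named genes were the members, up to 4 called genes with the smallest adjusted p per pathway list, the 5 profiles nearest to CREB5 (not all reported here), genes within 500 kb of CREB5, ATF3, BATF3 or JDP2, and TRIM28. Coordinates are as deposited, and of 6967 genes whose end equals that of GENCODE 44 with the start within 1 base, 6780 start 1 base before it. Counts were fitted in R 4.3.3 with edgeR 4.0.16 (TMM, quasi-likelihood F test, two-sided, no replicate block), for genes that reached 50 counts in each of the 4 libraries. Standard errors were taken from each log2 fold change and its F statistic. With 2 libraries per group, p-values measure the spread between these libraries. Alternatives were DESeq2 1.42.0, upper-quartile scaling, ERCC totals, an ERCC factor, the likelihood ratio test, count minimums of 10 and 1, a replicate block, removal of length or GC trends by lowess (span 0.3), exon length for levels, and leaving out each library. Crossed replicate numbers were added after seeing the data. On data simulated for the 12612 genes, the edgeR test recovered 99% of changes of 1 and 85% of changes of 0.585 on the log2 scale, with 3.66% of its calls false. The simulated libraries held no GC or length trend and no shift shared by genes. These rates therefore need not hold for the measured libraries. Same-numbered libraries did not deviate together (r = -0.24 across genes). All 23 promoter windows of members were identical to hg38. Figures were drawn in Python 3.11.15.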

Additional observations from a re-analysis of the deposited data

How the results depend on the processing

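The main limit is 2 libraries per group, and whole-gene counts do not resolve starts or isoforms. With ERCC totals as library sizes, which rest on at most 0.0265% of counts, 0 genes were called, thus 0 members and 0 pathway genes in either direction, and CREB5 had 2.09. Signs turned there for BATF2 (0.53), BATF3 (0.58), RGS2 (0.043), RPS6KA1 (0.32) and TRIM28 (0.28). With the ERCC factor they turned for CREB1 (-0.046), ATF2 (-0.13), BATF2 (0.24), JAZF1 (-0.093) and CPVL (-0.010), and 452 genes were called higher and 744 lower. Upper-quartile scaling turned CPVL (-0.051). Removing the length trend turned BATF2 (0.035), BATF3 (0.062) and CPVL (-0.067), with 635 genes higher and 418 lower. Removing GC and length trends turned CREB1 (-0.012), ATF2 (-0.10), BATF2 (0.064), BATF3 (0.052) and CPVL (-0.080), and called 2284 genes, with 31 pathway genes higher and 8 lower. The likelihood ratio test called 1593 genes, with 9 pathway genes lower, and a minimum of 1 count called 1417.

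A replicate block called 340 genes and 8 pathway genes higher, and kept CREB5 at 1.47. With GC and length trends removed under the replicate block, 2627 genes were called, with 32 pathway genes higher and 8 lower, CREB5 stood at 1.39, and CREB1 (-0.012), ATF2 (-0.10), BATF2 (0.045), BATF3 (0.052) and CPVL (-0.078) had the other sign. Pairing the libraries crosswise called 3190 genes, with 23 pathway genes higher and 13 lower. Leaving out 1 library gave 69 to 5491 called genes, 2 to 7 members and 4 to 27 pathway genes higher, 2 to 19 pathway genes lower and 1.35 to 1.58 for CREB5, and turned signs of ATF2 (-0.014 to 0.20), BATF2 (-0.45 to 0.15) and BATF3 (-0.12 to 0.022). The median level of all 10 members was 0.785 CPM per kb of gene, 0.738 to 0.828 without either DMSO library, and 6.03 per kb of exon. These medians include ATF7, whose level cannot be set against those of other genes. The cause of these shifts was not tested.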
